A study of Mus musculus with 16 samples.

Results

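The microRNAs (miRNAs, short RNAs that pair with messenger RNAs and repress them) described here are mmu-miR-99a-5p, mmu-let-7c-5p, mmu-miR-100-5p and mmu-miR-125b-5p, named below without the prefix for the mouse. They were taken by name from the array's annotation, and they are 4 of the 1247 mouse miRNAs on the array and of the 231 that were tested. They were put together because their genes lie in a pair of related clusters and because earlier results of the same arrays had shown them higher with Th2 cytokines, so their values with Th2 cytokines are given as a description without a test. All 4 were detected, and were well above background, on 16 of 16 arrays.

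RNA came from RAW264.7, an established line of macrophage-like cells from the mouse. The cells of the Th2_IL33 group were grown for 48 h with the Th2 cytokines IL-4 and IL-13 (interleukins 4 and 13, at 10 ng per ml) and then given interleukin-33 (IL-33, at 20 ng per ml) for 4 h. Th2 cells had the same cytokines without IL-33, Media_IL33 cells had medium alone and then IL-33, and Media cells had neither. Each group held 4 arrays, 1 from each of 4 independent experiments, and replicate numbers stand for the experiments. All groups are of 1 transformed cell line, so they model macrophages only as far as that line does.

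The genes of these miRNAs are duplicates of an ancestral cluster that holds a miR-99 or miR-100 gene, a let-7 gene and a miR-125 gene. miRNAs find their targets mainly through the seed, bases 2 to 8 of the mature strand. The let-7 family restrains growth and developmental programmes through targets such as Lin28 and Hmga2, and its maturation is in turn blocked by the Lin28 proteins. The miR-99 and miR-100 miRNAs are known to repress the growth kinase mTOR. miR-125b is a relative of lin-4 of the worm, and in macrophages it is known to repress the messenger RNA of tumour necrosis factor.

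The mature sequences show which of these miRNAs share a seed and how little separates some of them, which matters for reading an array. They are those of RefSeq (GRCm38.p6), written 5′ to 3′ with the seed in capitals.
miR-99a-5p: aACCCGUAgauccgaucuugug
miR-100-5p: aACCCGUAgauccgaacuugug
miR-99b-5p: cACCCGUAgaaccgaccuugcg
let-7c-5p: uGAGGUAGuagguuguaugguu
let-7a-5p: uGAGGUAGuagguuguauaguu
let-7b-5p: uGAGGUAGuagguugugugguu
let-7e-5p: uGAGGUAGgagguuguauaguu
miR-125b-5p: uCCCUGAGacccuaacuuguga
miR-125a-5p: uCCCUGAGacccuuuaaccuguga

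The 4 miRNAs carry 3 seeds, since miR-99a-5p and miR-100-5p have the same one. Counted from 1 at the 5′ end, miR-100-5p differs from miR-99a-5p at 1 of 22 bases (U16A), outside the seed. miR-99b-5p differs from miR-99a-5p at 4 bases (A1C, U11A, U16C and U21C). let-7a-5p and let-7b-5p each differ from let-7c-5p at 1 base (G19A and A17G), and let-7e-5p differs from it at 2 (U9G and G19A). miR-125b-5p and miR-125a-5p are the same over their first 13 bases and then part.

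On GRCm38, Mir99a (chr16:77598936-77599000) and Mirlet7c-1 (chr16:77599657-77599750) lie 656 bases apart on the plus strand. Mir125b-2 (chr16:77646273-77646343) follows 46522 bases further on. The annotated host transcript Mir99ahg ends 40507 bases before Mir99a in this annotation. On chromosome 9, Mir100 (chr9:41531425-41531504), Mirlet7a-2 (chr9:41536716-41536811) and Mir125b-1 (chr9:41581926-41582002) lie inside the long non-coding RNA gene Mir100hg (chr9:41376526-41615185). let-7c-5p also comes from Mirlet7c-2 (chr15:85706603-85706697), 621 bases from Mirlet7b. The mature miR-125b-5p is made from genes on chromosomes 9 and 16 and let-7c-5p from genes on chromosomes 15 and 16, and the array cannot tell apart copies of the same sequence. The third cluster, with Mir99b, Mirlet7e and Mir125a, spans chr17:17830188-17830879. It holds no member and is the closest comparison for all 4.

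Each member had 2 probes of 20 spots each by design. The capitals below mark the base of each probe that stands opposite the site where the pair of miRNAs differs.
miR-99a-5p probe: cacaagAtcggatctacgg
miR-100-5p probe: cacaagTtcggatctacgg
let-7c-5p probe: aacCatacaacctactacc
let-7a-5p probe: aacTatacaacctactacc

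Both miR-99a-5p probes had 1 mismatch to miR-100-5p and both miR-100-5p probes had 1 to miR-99a-5p. The let-7c-5p probes had 1 mismatch to let-7a-5p and to let-7b-5p. The miR-125b-5p probes had at least 5 mismatches to miR-125a-5p, and the miR-99a-5p probes had 3 to miR-99b-5p. How much of each signal came from a near-identical miRNA was not tested, so the values of miR-99a-5p and miR-100-5p and the difference between let-7c-5p and let-7a-5p are uncertain to that extent.

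Values are relative signals, in which 1 is an array's 75th percentile among the 178 miRNAs that every array detected. Between 206 and 256 miRNAs were detected on an array, and the percentile lay between 427 and 654 intensity units. Media replicate 3 stood apart from its group, with a median correlation of 0.874 to the other Media arrays. The median was 0.985 for all 24 pairs of arrays from the same group. Media 1 and Media 2 (0.92 each) and Th2_IL33 2 (0.945) were next lowest. An alternative below left out Media 3, Media 1 and Th2_IL33 2, called the 3 arrays that stood apart. It kept Media 2, so this measure alone does not give that set. The 2 slides were not balanced, since all 4 Th2_IL33 arrays were on slide 2 with 1 Th2, 2 Media_IL33 and 1 Media array. All 4 myeloid marker miRNAs were detected on 16 of 16 arrays. Of 18 marker miRNAs of epithelium, stroma, endothelium, liver, erythroid cells, muscle and neurons, 15 were detected on 0 arrays. The others were miR-199a-3p on 16, miR-206-3p on 11 and miR-214-3p on 6.

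miR-99a-5p had the widest difference of the 4 with Th2 cytokines. Its relative signal was 4.42, 4.86, 3.90 and 4.56 in Th2_IL33 replicates 1 to 4, and 4.21, 4.55, 3.98 and 4.18 in Th2 replicates 1 to 4. It was 1.86, 1.98, 2.23 and 1.99 in Media_IL33 and 2.63, 2.15, 1.39 and 2.00 in Media. Every array grown in Th2 cytokines lay above every array grown in medium, and the arrays with and without IL-33 lay among each other. In Th2 cells the mean was 4.23 ± 0.239, against 2.04 ± 0.513 in Media cells (SD, n = 4 each), a log2 difference of 1.08 ± 0.157 (SE of the limma fit over all 16 arrays) or 2.12-fold. With IL-33 in both arms the mean was 4.43 ± 0.400 in Th2_IL33 cells and 2.01 ± 0.156 in Media_IL33 cells, a log2 difference of 1.14 and 2.20-fold.

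let-7c-5p, whose gene Mirlet7c-1 is the nearest neighbour of Mir99a, had the smallest difference. Its relative signal was 7.49, 7.99, 6.63 and 7.79 in Th2_IL33 and 7.22, 7.73, 7.04 and 6.65 in Th2. It was 4.27, 4.59, 5.06 and 4.52 in Media_IL33 and 5.96, 4.63, 3.23 and 4.79 in Media. The Media arrays were the most spread, and Media 1 (5.96) came closest to the lowest arrays of the Th2-grown groups, Th2_IL33 3 (6.63) and Th2 4 (6.65). The mean was 7.16 ± 0.449 in Th2 cells and 4.65 ± 1.12 in Media cells (log2 difference 0.65 ± 0.151, 1.57-fold), and 7.48 ± 0.603 in Th2_IL33 cells and 4.61 ± 0.332 in Media_IL33 cells (log2 difference 0.70, 1.62-fold).

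The size of the let-7c-5p difference depended on the processing, and which step moved it was not tested. It was 0.29 for Th2 with Media after quantile normalization, 0.32 with normexp background correction and 0.20 in values from the authors' deposited table. The same settings gave 0.40, 0.34 and 0.34 for Th2_IL33 with Media_IL33. The normexp setting also adds an offset of 50 intensity units to each spot and replaces the percentile scaling by quantile normalization of the probes. Its values therefore differ from the main ones by more than a background correction.

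miR-100-5p is the chromosome 9 counterpart of miR-99a-5p. Its relative signal was 0.434, 0.533, 0.384 and 0.535 in Th2_IL33 and 0.584, 0.543, 0.507 and 0.408 in Th2. It was 0.214, 0.233, 0.268 and 0.296 in Media_IL33 and 0.293, 0.216, 0.194 and 0.323 in Media. Th2-grown and medium-grown arrays did not overlap, the closest being Th2 4 and Media 4 in one arm of the design and Th2_IL33 3 and Media_IL33 4 in the other. The mean was 0.510 ± 0.0755 in Th2 cells and 0.257 ± 0.0611 in Media cells (log2 difference 1.01 ± 0.182, 2.02-fold), and 0.472 ± 0.0751 in Th2_IL33 cells and 0.253 ± 0.0365 in Media_IL33 cells (log2 difference 0.90, 1.86-fold). Its 18-base probe was above background on 0 of 16 arrays, and the 19-base probe gave 94.5% of the summed signal, so that the values of miR-100-5p are in effect those of 1 probe. With normexp background correction, which here includes the offset and quantile normalization, the differences were 0.58 and 0.49.

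miR-125b-5p, which both clusters encode, was 3.85, 4.29, 3.12 and 4.35 in Th2_IL33 and 4.16, 4.35, 3.93 and 3.26 in Th2. It was 2.03, 2.16, 2.63 and 2.62 in Media_IL33 and 2.57, 2.33, 1.78 and 2.71 in Media. The lowest Th2_IL33 array (3.12) and the lowest Th2 array (3.26) were still above the highest medium-grown array (2.71). The mean was 3.92 ± 0.475 in Th2 cells and 2.35 ± 0.412 in Media cells (log2 difference 0.75 ± 0.159, 1.68-fold), and 3.90 ± 0.568 in Th2_IL33 cells and 2.36 ± 0.308 in Media_IL33 cells (log2 difference 0.72, 1.65-fold). It was 0.45 and 0.47 with normexp background correction, 0.40 and 0.46 in the authors' deposited table, and 0.49 for Th2_IL33 with Media_IL33 after quantile normalization.

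**Figure D1:**
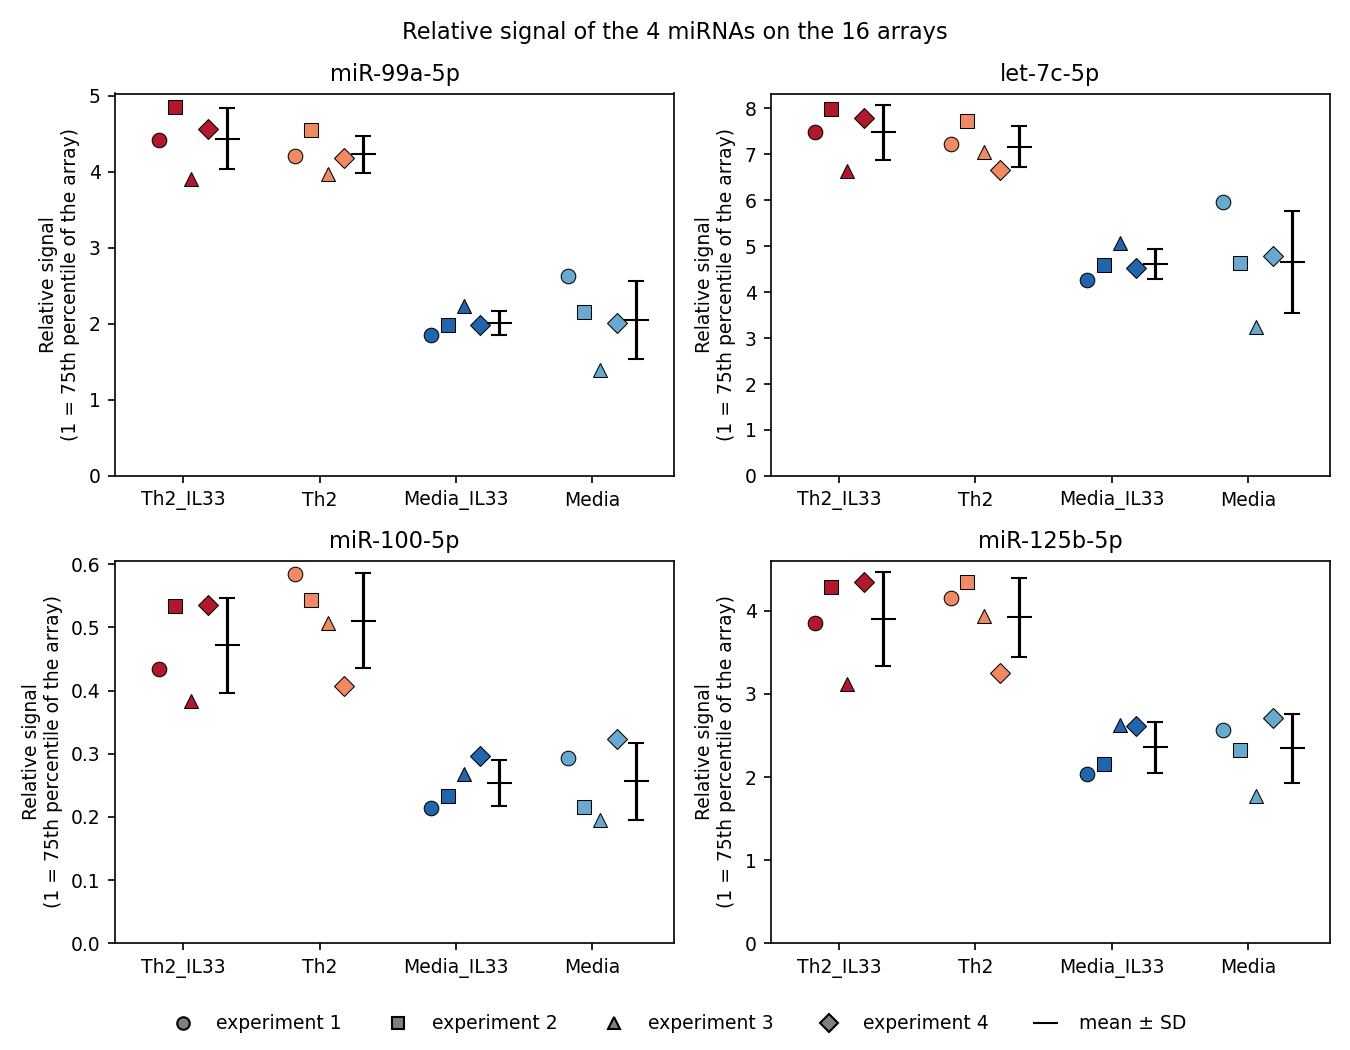
Relative signal of miR-99a-5p, let-7c-5p, miR-100-5p and miR-125b-5p on each of the 16 arrays, by group, with the mean and SD (n = 4) beside the points and 1 symbol for each experiment; each vertical axis starts at 0. In all 4 panels the Th2_IL33 and Th2 arrays lie above the Media_IL33 and Media arrays with no overlap, and the SD of the Media group, taken as a share of its mean, is the largest in 4 of 4 panels.

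The groups did not overlap for 4 of 4 members in either comparison, which the choice of members fixes. Over all tested miRNAs, 9.09% were higher without overlap for Th2 with Media and 14.3% for Th2_IL33 with Media_IL33, and limma called 8.66% and 8.23% higher at a Benjamini-Hochberg adjusted p under 0.05. The median log2 difference of the 4 members was 0.88 for Th2 with Media and 0.81 for Th2_IL33 with Media_IL33, beside 0.06 and 0.08 for the 231 tested miRNAs. Compared within an experiment, each member was higher in 4 of 4 experiments in both comparisons, which follows from the lack of overlap. For Th2 with Media the log2 difference ran from 0.68 (experiment 1) to 1.52 (experiment 3) for miR-99a-5p, from 0.28 to 1.13 in the same experiments for let-7c-5p, from 0.34 (experiment 4) to 1.38 (experiment 3) for miR-100-5p and from 0.26 to 1.15 in those experiments for miR-125b-5p. Experiment 3 was the widest for all 4 in this comparison, and it is the experiment of Media replicate 3. For Th2_IL33 with Media_IL33 it was the narrowest for all 4, with log2 differences of 0.81 for miR-99a-5p, 0.39 for let-7c-5p, 0.52 for miR-100-5p and 0.25 for miR-125b-5p. Without Media 1, Media 3 and Th2_IL33 2, the log2 differences were 1.02 for miR-99a-5p, 0.60 for let-7c-5p, 0.94 for miR-100-5p and 0.63 for miR-125b-5p for Th2 with Media.

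Within slide 1 (3 Th2 and 3 Media arrays) the log2 differences were 1.22 for miR-99a-5p, 0.82 for let-7c-5p, 1.19 for miR-100-5p and 0.89 for miR-125b-5p. Within slide 2, which holds 1 Th2 and 1 Media array, they were 0.67, 0.16, 0.48 and 0.34 in that order. The single Th2 array of slide 2 was Th2 4, the lowest of its group for let-7c-5p, miR-100-5p and miR-125b-5p, and the single Media array was Media 1. For Th2_IL33 with Media_IL33, slide 2 alone (4 and 2 arrays) gave 1.21, 0.75, 1.06 and 0.88. A slide block cannot change the Th2 with Media differences, since both groups have 3 arrays on slide 1 and 1 on slide 2. With that block, the differences of Th2_IL33 with Media_IL33 were 1.09, 0.66, 0.98 and 0.81.

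The single probes of miR-99a-5p, let-7c-5p and miR-125b-5p all gave positive differences. For Th2 with Media the log2 differences were 1.06 and 1.14 for the 19-base and 18-base probes of miR-99a-5p, 0.64 and 0.70 for those of let-7c-5p, and 0.75 and 0.83 for the 17-base and 16-base probes of miR-125b-5p. The 19-base probe of miR-100-5p gave 1.07, and its 18-base probe was at the floor on 16 of 16 arrays and gave no difference of its own.

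The 2 marker miRNAs of other cells that could be tested did not pass in these comparisons. The stromal miR-199a-3p, the only one of them detected on all arrays, had a log2 difference of 0.52 (adjusted p = 0.136, limma) for Th2 with Media and 0.48 (adjusted p = 0.207, limma) for Th2_IL33 with Media_IL33. The summed relative signal of the 18 markers ranged from 0.228 to 0.300 in Th2_IL33, 0.293 to 0.340 in Th2, 0.233 to 0.325 in Media_IL33 and 0.194 to 0.339 in Media, and the stromal miR-143-3p and miR-145a-5p were detected on 0 arrays. Of the 4 myeloid markers, limma called 2 for Th2 with Media and 1 for Th2_IL33 with Media_IL33. miR-223-3p, a miRNA of the myeloid lineage, was higher by 1.13 (adjusted p = 0.00495, limma) and 1.08 (adjusted p = 0.00687) on the log2 scale. miR-21a-5p, which macrophages share with many other cells, was higher by 0.80 (adjusted p = 0.0386) for Th2 with Media, and for Th2_IL33 with Media_IL33 its difference was 0.60 (adjusted p = 0.139). miR-142a-3p had -0.16 (adjusted p = 0.593) and -0.04 (adjusted p = 0.828), and miR-142a-5p had -0.13 (adjusted p = 0.76) and -0.11 (adjusted p = 0.678). The summed signal of the 4 was 23.5 to 31.8 in Th2_IL33, 17.8 to 26.1 in Th2, 14.7 to 21.1 in Media_IL33 and 8.22 to 17.5 in Media, and most of it was miR-21a-5p (mean 24.6, 18.7, 16.2 and 11.1 in that order of groups). The part of these markers in the members' values was not tested. In RNA of a whole culture, more cells that express a miRNA and more of it per cell cannot be told apart.

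IL-33 gave no detectable change in any of the 4 members. They were not chosen on an IL-33 comparison, but each of these comparisons shares the Media or the Th2 arrays with one on which they were chosen. In medium-grown cells (Media_IL33 with Media) the log2 differences were 0.01 for miR-99a-5p, 0.02 for let-7c-5p, 0.00 for miR-100-5p and 0.02 for miR-125b-5p (adjusted p = 1 for each, limma). Their 95% intervals were -0.32 to 0.35, -0.30 to 0.34, -0.39 to 0.39 and -0.32 to 0.36 in that order, so changes of up to about 1.31-fold remain within the error. Limma called 0 of 4 members, beside 1.73% of the tested miRNAs.

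In Th2-grown cells (Th2_IL33 with Th2) the log2 differences were 0.07 for miR-99a-5p (interval -0.27 to 0.40), 0.06 for let-7c-5p (-0.26 to 0.38), -0.12 for miR-100-5p (-0.51 to 0.27) and -0.01 for miR-125b-5p (-0.35 to 0.33), with adjusted p = 1 for each in limma. Again 0 of 4 were called, beside 1.73% of all tested. In this comparison miR-99a-5p and let-7c-5p were higher with IL-33 in 3 of 4 experiments, while miR-100-5p and miR-125b-5p were higher in 1 of 4. The interaction, which asks whether IL-33 acted differently after Th2 growth, was 0.05, 0.04, -0.12 and -0.03 in the order above (adjusted p = 0.995 for each, limma). It was called for 0% of the tested miRNAs in limma, and 5 had an unadjusted p under 0.05.

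The pairs of arrays behind the flat Media_IL33 with Media means were not flat. In experiment 1 all 4 members were lower with IL-33 (log2 differences from -0.51 for miR-99a-5p to -0.34 for miR-125b-5p), and in experiment 3 all 4 were higher (from 0.47 for miR-100-5p to 0.68 for miR-99a-5p). Media 1 and Media 3 are the Media arrays of those experiments. Within slide 1 (2 Media_IL33 and 3 Media arrays) the differences ran from 0.20 to 0.24. Within slide 2 (2 and 1) they ran from -0.46 to -0.29, with Media 1 as the only Media array there.

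**Figure D2:**
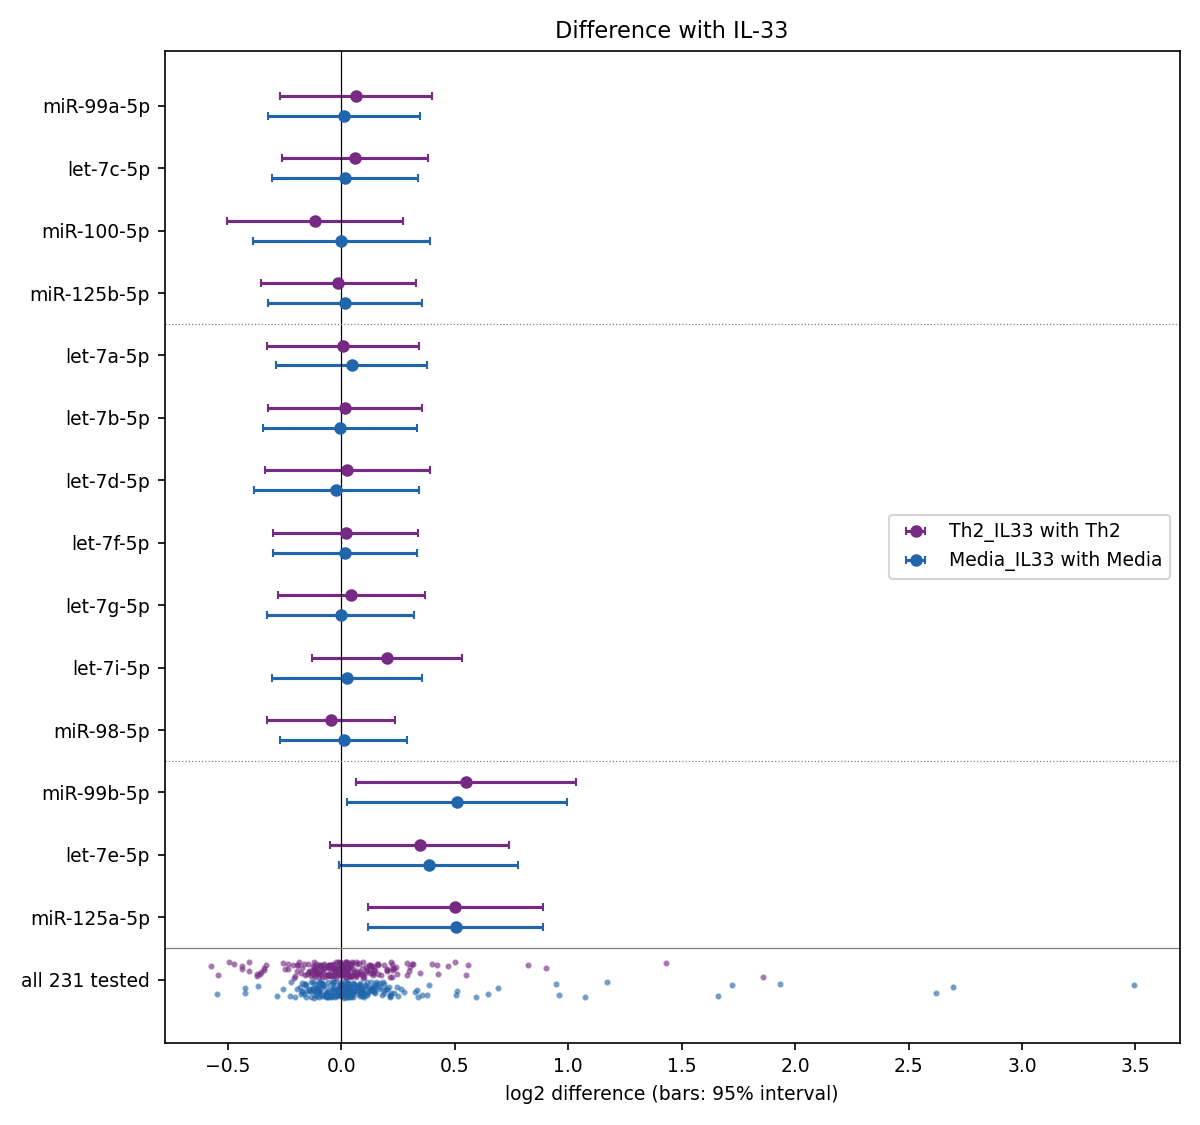
Log2 difference with IL-33, in Th2-grown cells (Th2_IL33 with Th2) and in medium-grown cells (Media_IL33 with Media), with 95% intervals from the limma fit, for the 4 members (top), let-7 relatives (middle) and the third cluster (bottom); the lowest row shows all 231 tested miRNAs as points. The intervals of the 4 members all include 0, and the estimates of miR-99b-5p, let-7e-5p and miR-125a-5p lie between 0.35 and 0.55. miR-99b-5p was well above background on 0 of 4 Th2 arrays.

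The nearest relatives had smaller differences with Th2 cytokines than the members, and none passed the test with the main settings. The members themselves were not tested there. let-7a-5p, whose gene Mirlet7a-2 sits between Mir100 and Mir125b-1 but which is also made elsewhere, had a relative signal of 4.82 to 6.35 in Th2_IL33, 5.34 to 5.93 in Th2, 3.83 to 4.88 in Media_IL33 and 3.03 to 5.24 in Media. Like the members, it did not overlap between Th2 and Media arrays and was higher in 4 of 4 experiments. Of all tested miRNAs, 9.09% were higher without overlap there. For Th2_IL33 with Media_IL33 the groups of let-7a-5p overlapped, and it was higher in 3 of 4 experiments. Its log2 difference was 0.40 (adjusted p = 0.127, limma) for Th2 with Media and 0.37 (adjusted p = 0.201) for Th2_IL33 with Media_IL33. For let-7b-5p, whose gene neighbours Mirlet7c-2, these were 0.27 (adjusted p = 0.343) and 0.29 (adjusted p = 0.347). Of the 6 other let-7 family miRNAs (let-7b-5p, let-7d-5p, let-7f-5p, let-7g-5p, let-7i-5p and miR-98-5p), 0 passed in either comparison, beside 9.52% called among all tested miRNAs in each. Their log2 differences had a median of 0.13 (range -0.02 to 0.27) for Th2 with Media and 0.17 (range -0.08 to 0.29) with IL-33 in both arms. The 95% interval of let-7a-5p for Th2 with Media ran from 0.07 to 0.74, so a miss of the threshold does not show that it was unchanged.

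The third cluster on chromosome 17, which holds a counterpart of each member, gave estimates below 0 with Th2 cytokines for its 3 5p strands, and 0 of them passed the test. miR-99b-5p, the counterpart of miR-99a-5p and miR-100-5p, had a relative signal of 0.0592 to 0.0933 in Th2_IL33, 0.0386 to 0.0596 in Th2, 0.0811 to 0.106 in Media_IL33 and 0.0405 to 0.0954 in Media. It was well above background on 4 of 4 Th2_IL33, 0 of 4 Th2, 4 of 4 Media_IL33 and 2 of 4 Media arrays. Its Th2 arrays were set no lower than the lowest signal above background on the same array. On that basis it was an estimated 1.25-fold lower in Th2 cells (measured mean 0.0524) than in Media cells (0.0679). miR-99b-5p did not pass here (adjusted p = 0.433, limma), and the limma interval of its log2 difference, -0.81 to 0.16, included 0. Its log2 difference for Th2_IL33 with Media_IL33 was -0.29 (adjusted p = 0.476). let-7e-5p had differences of -0.07 (adjusted p = 0.911) and -0.11 (adjusted p = 0.689), and miR-125a-5p of -0.07 (adjusted p = 0.911) and -0.07 (adjusted p = 0.791). The 3p strands were near background, miR-99b-3p being above it on 1 and miR-125a-3p on 0 of 4 Th2 arrays. Their log2 differences for Th2_IL33 with Media_IL33 were 0.19 (adjusted p = 0.571) for miR-99b-3p and -0.13 (adjusted p = 0.655) for miR-125a-3p. For Th2 with Media miR-99b-3p had 0.23 (adjusted p = 0.563), and miR-125a-3p was an estimated 1.08-fold lower (measured means 0.0994 and 0.112, adjusted p = 0.823). The limma interval of the miR-125a-3p log2 difference, -0.52 to 0.30, included 0. Of the 5 tested strands of this cluster, 0 passed in either comparison.

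**Figure D3:**
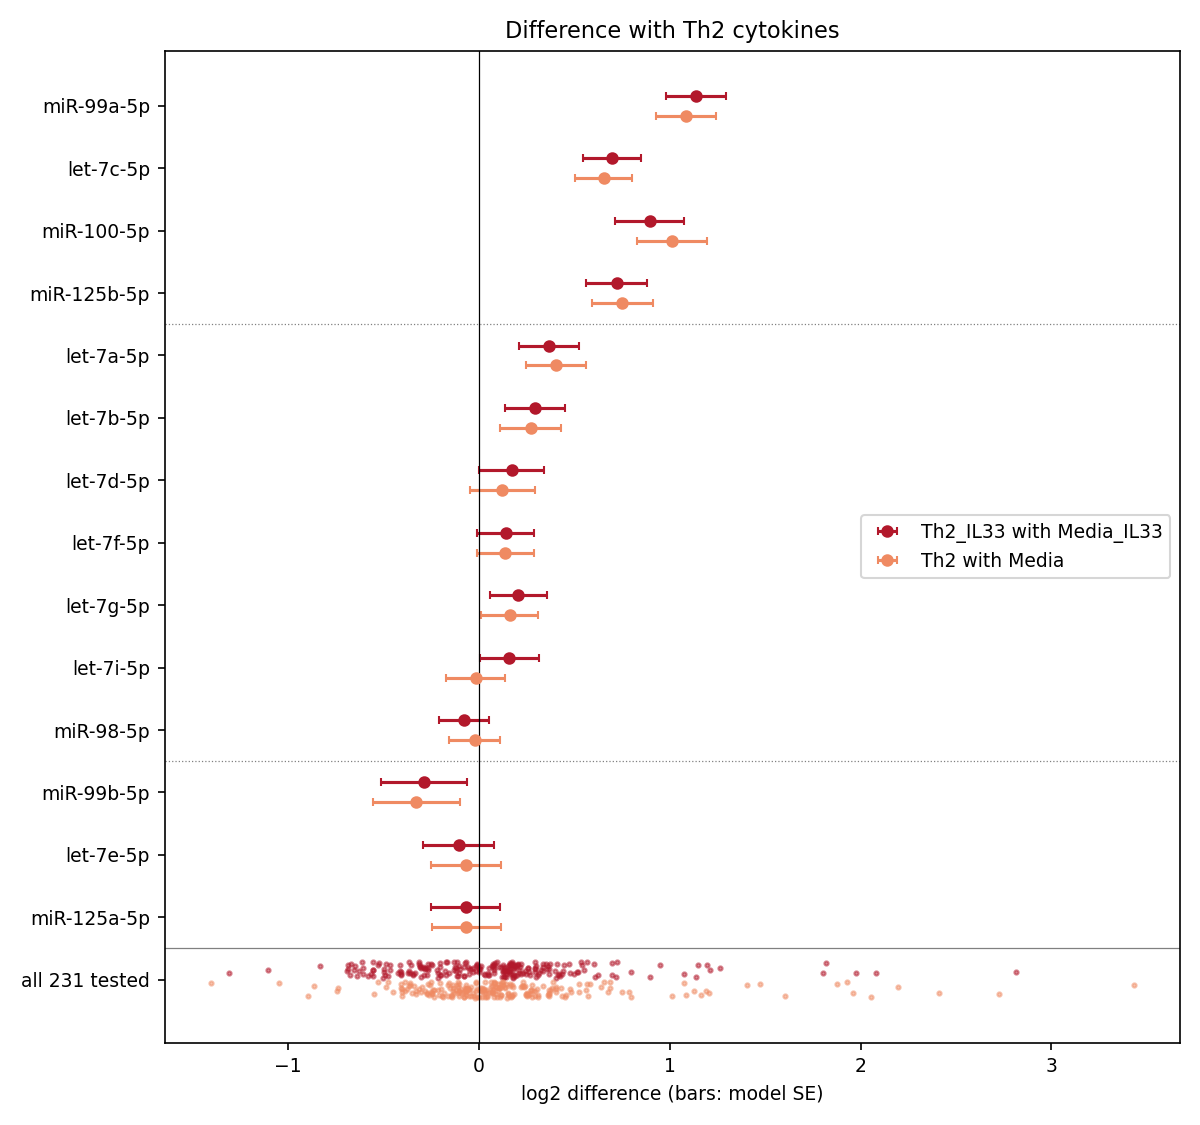
Log2 difference with Th2 cytokines, with IL-33 in both arms (Th2_IL33 with Media_IL33) and without it (Th2 with Media), with the SE of the limma fit, for the 4 members (top), let-7 relatives (middle) and the third cluster (bottom); the lowest row shows all 231 tested miRNAs as points. The 4 members lie between 0.65 and 1.14, the let-7 relatives between -0.08 and 0.40, and miR-99b-5p, let-7e-5p and miR-125a-5p between -0.33 and -0.07. miR-99b-5p was well above background on 0 of 4 Th2 arrays, so its point for Th2 with Media is an estimate near background.

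With IL-33, the third cluster had positive estimates where those of the members were near 0, although none passed the test over all miRNAs. miR-125a-5p was 0.157 to 0.221 in Th2_IL33, against 0.131 to 0.142 in Th2, and 0.173 to 0.221 in Media_IL33, against 0.0936 to 0.195 in Media. Its log2 difference with IL-33 was 0.50 (adjusted p = 0.658, limma) in Th2-grown cells and 0.51 (adjusted p = 0.353) in medium-grown cells. let-7e-5p had 0.35 (adjusted p = 1) and 0.39 (adjusted p = 0.846). miR-99b-5p, near background as given above, was an estimated 1.46-fold higher in Th2_IL33 cells (measured mean 0.0766) than in Th2 cells (0.0524, adjusted p = 1). The limma interval of that log2 difference ran from 0.06 to 1.03. In medium-grown cells the log2 difference of miR-99b-5p was 0.51 (adjusted p = 0.779). All 5 tested strands were positive in both comparisons and 0 of 5 passed. In medium-grown cells experiment 3, that of Media 3, was the widest, with 1.29 for miR-99b-5p, 1.21 for let-7e-5p and 1.19 for miR-125a-5p. The other experiments gave 0.15 to 0.42, -0.06 to 0.31 and 0.17 to 0.48 in that order. Leaving out 1 array at a time gave 0.28 to 0.69, 0.15 to 0.51 and 0.31 to 0.66.

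Because array-wide shifts cancel in a ratio within an array, let-7c-5p and miR-125b-5p were also set against their counterparts in that way. These pairs were chosen after the values were seen, so the ratios are a description with no test. The log2 ratio of let-7c-5p to let-7e-5p was lower by 0.28 in Th2_IL33 than in Th2 cells, and that of miR-125b-5p to miR-125a-5p by 0.52. Both were lower in 4 of 4 experiments, and the groups did not overlap. In this comparison let-7c-5p and miR-125b-5p themselves moved by 0.06 and -0.01, while let-7e-5p and miR-125a-5p each had groups that did not overlap. Of all tested miRNAs, 3.9% did not overlap here and 2.16% for Media_IL33 with Media. The share over other ratios was not computed. Set against Media cells, the ratios in Media_IL33 cells were lower by 0.37 and 0.49 in the same order, again in 4 of 4 experiments, and the groups overlapped for the let-7c-5p ratio only. With normexp background correction the miR-125b-5p ratio was lower by 0.20 in Th2_IL33 than in Th2 cells and by 0.17 in Media_IL33 than in Media cells. Within slide 2 (4 Th2_IL33 arrays and 1 Th2 array) the differences were -0.17 and -0.26. With Th2 cytokines the ratios were higher by 0.72 and 0.82 in Th2 than in Media cells and by 0.80 and 0.79 in Th2_IL33 than in Media_IL33 cells, which are comparisons the members were chosen on.

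The partner strands gave no second reading of the clusters. miR-99a-3p, let-7c-1-3p, miR-100-3p, miR-125b-1-3p, miR-125b-2-3p and let-7a-2-3p were detected on 0 of 16 arrays. The strands that would show which of the miR-125b genes was active were therefore below detection in every group. Of the miRNAs elsewhere that share a seed with a member, let-7k was detected on 16 arrays and had log2 differences of -0.08 for Th2 with Media and -0.10 for Th2_IL33 with Media_IL33, while miR-351-5p, miR-1961, miR-6367 and miR-6394 were detected on 0.

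The order of the 4 groups was the same in kind for every member, the Th2-grown groups above the medium-grown ones. Th2_IL33 had the highest mean for miR-99a-5p and let-7c-5p, and Th2 for miR-100-5p and miR-125b-5p, but these neighbours differed by less than the spread between arrays. Media_IL33 and Media means differed by at most 0.02 on the log2 scale. The Media group had the largest coefficient of variation for 4 of 4 members, from 17.6% to 25.1%.

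The members varied together over the arrays, some pairs more closely than others. Over the 16 arrays the log2 values of miR-99a-5p and let-7c-5p, neighbours on chromosome 16, correlated with r = 0.984, and those of miR-100-5p and miR-125b-5p with r = 0.983. These values include the differences between groups. As deviations from the group means, r was 0.976 for miR-99a-5p with let-7c-5p and 0.929 for miR-100-5p with miR-125b-5p, against 0.598 for miR-99a-5p with miR-100-5p. The other pairs lay between 0.704 and 0.798. Without the 3 arrays that stood apart the values were 0.877, 0.909 and 0.379 in the order given, and let-7c-5p with miR-125b-5p had 0.875, beside the 0.877 of miR-99a-5p with let-7c-5p. The points share array, RNA sample and scaling, and the values are a description with n = 16. Correlations of this size were not particular to the members. As deviations, miR-378d with miR-125b-5p had r = 0.942 and miR-532-5p with let-7c-5p had 0.900. Among the Media arrays, let-7b-5p, which is not a member, was highest in Media 1 (3.03) and lowest in Media 3 (1.61), as was let-7c-5p. The share over all pairs of tested miRNAs was not computed. miR-99a-5p and miR-100-5p, the pair with 1 base between them, were the pair of members whose deviations were least alike. How much of either signal came from the other miRNA was not tested.

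A few arrays lay farthest from their group means. Averaged over the 4 members, Media 3 lay 0.44 below its group mean on the log2 scale and Media 1 lay 0.29 above it. Th2_IL33 3 lay 0.24 below and Th2 4 lay 0.17 below. In Th2 4, miR-99a-5p was at its group mean (deviation -0.02) while miR-100-5p lay at -0.31 and miR-125b-5p at -0.26. In Media 4, miR-99a-5p deviated by 0.01 and miR-100-5p by 0.36.

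**Figure D4:**
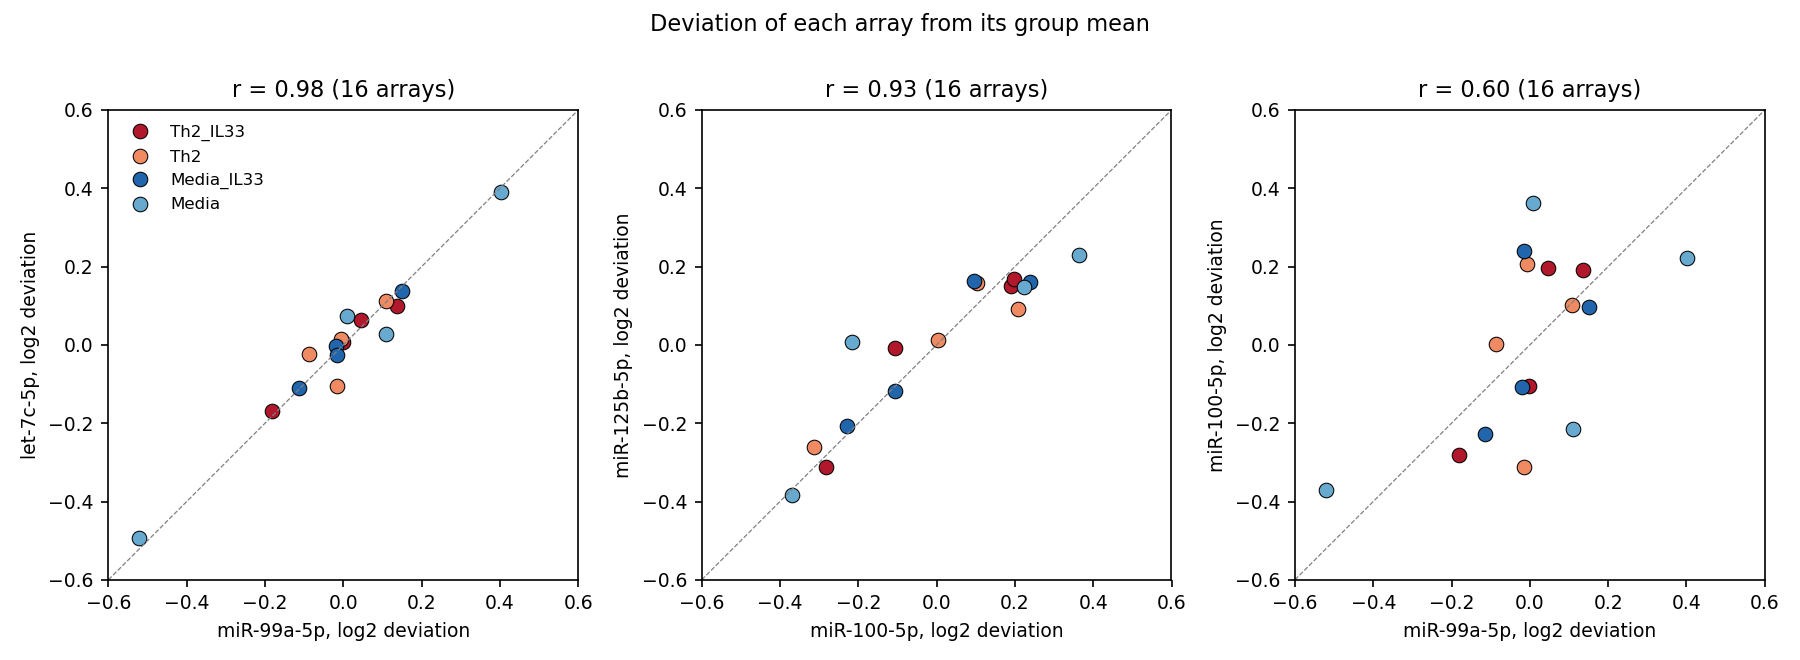
Log2 deviation of each of the 16 arrays from its group mean, for miR-99a-5p with let-7c-5p, miR-100-5p with miR-125b-5p and miR-99a-5p with miR-100-5p, coloured by group, with the line of equal deviation dashed. The points follow the line in the first panels (r = 0.976 and 0.929) and scatter in the last (r = 0.598), with Media 3 at the lower left of each.

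The miRNAs most like the members over the 16 arrays came from 2 other groups. Among 212 candidates, the 3 with the highest correlation to miR-99a-5p were miR-532-5p (r = 0.988), miR-500-3p (0.984) and miR-362-3p (0.980), which are encoded in the chloride channel gene Clcn5. For miR-125b-5p they were miR-378d (0.976), miR-378b (0.975) and miR-378a-3p (0.972), and for miR-100-5p the same 3, with 0.970, 0.956 and 0.955. miR-378a-3p is encoded in Ppargc1b. let-7c-5p had miR-378b (0.968), miR-532-5p (0.956) and miR-500-3p (0.952). These lists were ranked on values that include the difference with Th2 cytokines on which the members were chosen, so miRNAs with a like difference rank high. As deviations from the group means the first of each list had r = 0.918 (miR-532-5p with miR-99a-5p), 0.942 (miR-378d with miR-125b-5p), 0.857 (miR-378d with miR-100-5p) and 0.893 (miR-378b with let-7c-5p). The others ran from 0.742 (miR-378b with miR-100-5p) to 0.929 (miR-378a-3p with miR-125b-5p).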

How the data were processed

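miRNAs were measured on 16 single-colour (Cy3) Agilent arrays. Per the file headers, spot signals come from Agilent Feature Extraction 10.7.3.1. The deposited intensity of each spot is background-subtracted and not normalized between arrays. A second set of probe intensities deposited by the authors served as an alternative and was made with Partek 6.6 and RMA, per the submitters' processing notes.

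From the scanner files, control and outlier spots were left out, spots of a probe averaged, and probes of a miRNA summed. Signals were scaled to the 75th percentile of the array, taken over the 178 miRNAs that every array detected. Values under 0.0353 (log2 of -4.82) were raised to that floor before the log2 was taken. The limma package (3.58.1, under R 4.3.3, with data.table version 1.17.8 to read the files) fitted 1 mean per group to 16 arrays (12 residual degrees of freedom) for the 231 miRNAs that 1 group or more detected on all its 4 arrays, with Benjamini-Hochberg adjustment over the 231 and a threshold of 0.05. The fit was tested on simulated data. No spot was saturated. The number of arrays limits the precision, and the median SE of a log2 difference was 0.18.

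The members and lists were chosen with earlier results of these data known. The miRNAs named are the 4 members, listed relatives (cluster partners, the third cluster, let-7 family, miR-10 relatives, seed relatives), marker lists and the 3 miRNAs most correlated with each member. miR-10a-5p had log2 differences of 0.15 for Th2 with Media and 0.21 for Th2_IL33 with Media_IL33 (adjusted p = 0.597 and 0.452, limma), and miR-10b-5p was detected on 0 arrays. let-7c-2-3p is not on the array under that name. Sequences and positions are those of RefSeq, and probe sequences those of the scanner files.

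Replicate numbers stand for independent experiments per the labels, which pairs the arrays. Deviations of arrays with the same number correlated with a median r of 0.112 (24 pairs, range -0.694 to 0.728), and those with different numbers with -0.048. The experiment as a block, the slide, other scalings, background corrections, summaries and filters were alternatives. The normexp alternative combined the background correction with an offset of 50 intensity units and quantile normalization of the probes.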

Additional observations from a re-analysis of the deposited data

How the results depend on the processing

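The members' differences with Th2 cytokines were positive under every alternative run (33 or 34 settings for Th2 with Media, 32 or 33 for Th2_IL33 with Media_IL33). Some values moved by more than the spread between arrays. For Th2 with Media, quantile normalization gave 0.29 for let-7c-5p, normexp background correction 0.82 for miR-99a-5p, 0.32 for let-7c-5p, 0.58 for miR-100-5p and 0.45 for miR-125b-5p, the authors' deposited values 0.20 for let-7c-5p and 0.40 for miR-125b-5p, and slide 2 alone 0.67, 0.16, 0.48 and 0.34 in the order given for normexp. For Th2_IL33 with Media_IL33, quantile normalization gave 0.40 for let-7c-5p and 0.49 for miR-125b-5p, normexp 0.82, 0.34, 0.49 and 0.47 for the 4 members, and the deposited values 0.88 for miR-99a-5p, 0.34 for let-7c-5p and 0.46 for miR-125b-5p. Causes were not tested. Leaving out 1 array at a time gave 0.91 to 1.22 for miR-99a-5p, 0.49 to 0.78 for let-7c-5p, 0.89 to 1.13 for miR-100-5p and 0.62 to 0.84 for miR-125b-5p for Th2 with Media.

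The experiment as a block cannot change a difference, since each group has 1 array from each experiment. That block changed no call of a member or relative. For IL-33 and for the interaction, 0 of 4 members passed under any setting. Sign changes larger than the spread between arrays were those of Media_IL33 with Media within slide 2 (-0.46 for miR-99a-5p, -0.43 for let-7c-5p, -0.39 for miR-100-5p, -0.29 for miR-125b-5p and -0.37 for let-7a-5p), miR-125b-5p for Th2_IL33 with Th2 within slide 2 (0.25), let-7b-5p for Th2 with Media within slide 2 (-0.15) and the interaction of miR-125a-5p with array weights (0.31). Smaller differences also changed sign, those of Media_IL33 with Media being positive in 28, 24 and 25 of 34 settings for miR-99a-5p, let-7c-5p and miR-125b-5p and 12 of 33 for miR-100-5p. These counts too include settings that cannot change the value.

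Counts of called miRNAs for Th2 with Media were 64 with array weights and 19 to 30 when 1 array was left out. For Th2_IL33 with Media_IL33 they were 12 with scaling over all miRNAs, 14 in the authors' deposited table, with no filter and with miRNAs detected on all arrays, 37 with slide and replicate block, 71 with array weights and 19 to 36 when 1 was left out, the highest without Media 3. For Media_IL33 with Media they were 2 with normexp and without the 3 arrays that stood apart, 1 with miRNAs detected on all arrays and 3 to 5 when 1 array was left out. For Th2_IL33 with Th2 they were 2 with scaling over all miRNAs, in the authors' deposited table and with miRNAs detected on all arrays, and 3 to 4 when 1 array was left out. The interaction gave 1 with array weights. Without a filter most miRNAs lie at the floor. With total gene signal the median of all miRNAs moved by 0.16 for Media_IL33 with Media.

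Array weights called the 5p strands of the third cluster lower for Th2 with Media (miR-99b-5p -0.58, let-7e-5p -0.34 and miR-125a-5p -0.37, adjusted p = 0.0133, 0.0229 and 0.0314, limma), and miR-99b-5p also passed without the 3 arrays that stood apart (-0.68, adjusted p = 0.0423), although it was above background on 0 of 4 Th2 arrays. They also called let-7a-5p (0.38) and let-7b-5p (0.30) higher for Th2_IL33 with Media_IL33, and let-7e-5p (0.39) and miR-125a-5p (0.53) higher for Th2_IL33 with Th2. let-7a-5p also passed in the first of these without Media 3 (0.37). The ratios of let-7c-5p to let-7e-5p and of miR-125b-5p to miR-125a-5p were lower with IL-33 under all 16 alternatives run. Values that moved by more than the spread were -0.18 for let-7c-5p without the 3 arrays and, for miR-125b-5p, -0.17 with normexp and -0.70 with total gene signal in Media_IL33 with Media, and -0.20 with normexp in Th2_IL33 with Th2. Leaving out 1 array at a time gave -0.32 to -0.25 and -0.60 to -0.47 for Th2_IL33 with Th2 and -0.47 to -0.29 and -0.56 to -0.42 for Media_IL33 with Media.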
